A study of Mus musculus with 8 samples.

Results

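Promoter H3K27 acetylation was set against RNA level gene by gene in pachytene spermatocytes (PS), the germ cells in mid meiotic prophase. Each autosomal gene was given its transcription start sites from the deposited gene tables, a promoter signal in each ChIP-seq replicate and an RNA level. The signal is the strongest fold enrichment among the H3K27ac peaks that reach to within 2 kb of a start, set to 0 where none is listed, and the RNA level is the RPKM, the reads on the gene scaled for transcript length and library size. Of the 23343 genes in the tables, 22241 had all of their rows on autosomes and were analysed. The H3K27ac lists came from wild-type PS (2 replicates) and the RNA tables from *Rnf8;Scml2*-dKO PS (2 replicates), which lack both the ubiquitin ligase RNF8 and the Polycomb-associated protein SCML2. All cells came from testes of adult C57BL/6 mice and were separated by sedimentation through BSA, and the dKO cells were prepared on a scale that takes the testes of a single male. The genotypes therefore differ between the assays, and what the genotype and what the assay contribute to a mismatch between them cannot be told apart. The round spermatid (RS) libraries of both kinds, 2 replicates each, serve only to show what the PS genes did at the next stage. Wild-type RNA was not analysed here.

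H3K27 acetylation is placed on nucleosomes that flank the start sites of transcribed genes and active enhancers by the acetyltransferases p300 and CBP. It blocks methylation of the same lysine by the Polycomb complex PRC2. Mammalian promoters fall broadly into those that lie in CpG islands, many of them used in most tissues, and those poor in CpG, more of them restricted to single tissues. PS transcribe a very large share of the genome, including genes whose products are used only after meiosis.

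Reads were left at both targeted genes in the dKO libraries. *Rnf8* had 93 and 110 reads in PS (4.02 and 4.88 RPKM) and 61 and 50 in RS, and *Scml2*, on the X chromosome, had 40 and 92 reads in PS (0.724 and 1.71 RPKM) and 44 and 98 in RS. The tables give reads over whole transcripts, so these values do not show whether the deleted part of either gene was transcribed. The PS libraries held 9986207 and 9655405 reads on genes and the RS libraries 12289694 and 10254532. The PS peak lists held 38519 and 46177 autosomal peaks, none under a fold enrichment of 3.29, so that "without a peak" means only that nothing passed the threshold of the lists. The number of ChIP-seq reads is not known from the lists. All 36 autosomal markers of pachytene and meiotic prophase had a peak in both replicates and at least 3 RPKM in both RNA libraries, with median levels of 101 and 92.2 RPKM.

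Promoters of 6 genes that depart from the general relation are printed here, since they carry its exceptions. Each runs from 250 bases before to 50 bases after the start on the gene's own strand, 5′ to 3′ (RefSeq promoter table, build GRCm38, the same assembly as mm10), with every CpG dinucleotide in capitals. *Sp4* (chr12:118301391-118301690, minus strand), *Cd37* (chr7:45238790-45239089, minus strand) and *Nova1* (chr12:46818718-46819017, minus strand) had a strong peak and almost no RNA. *Ccdc136* (chr6:29398676-29398975, plus strand), *Dgcr6* (chr16:18052610-18052909, plus strand) and *Efcab5* (chr11:77188919-77189218, minus strand) had abundant RNA and no peak within 2 kb of this start.
Sp4: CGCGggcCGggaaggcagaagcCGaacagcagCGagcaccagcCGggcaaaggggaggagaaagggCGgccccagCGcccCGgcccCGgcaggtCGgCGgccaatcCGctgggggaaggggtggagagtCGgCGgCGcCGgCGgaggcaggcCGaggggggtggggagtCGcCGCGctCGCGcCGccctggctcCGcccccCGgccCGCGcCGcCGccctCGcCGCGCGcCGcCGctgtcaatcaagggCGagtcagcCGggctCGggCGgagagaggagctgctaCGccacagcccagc
Cd37: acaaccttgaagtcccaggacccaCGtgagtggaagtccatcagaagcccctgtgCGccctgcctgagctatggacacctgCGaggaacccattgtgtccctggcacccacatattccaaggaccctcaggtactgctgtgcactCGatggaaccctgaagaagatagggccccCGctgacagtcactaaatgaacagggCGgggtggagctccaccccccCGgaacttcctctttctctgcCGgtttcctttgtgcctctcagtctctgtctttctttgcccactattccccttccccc
Nova1: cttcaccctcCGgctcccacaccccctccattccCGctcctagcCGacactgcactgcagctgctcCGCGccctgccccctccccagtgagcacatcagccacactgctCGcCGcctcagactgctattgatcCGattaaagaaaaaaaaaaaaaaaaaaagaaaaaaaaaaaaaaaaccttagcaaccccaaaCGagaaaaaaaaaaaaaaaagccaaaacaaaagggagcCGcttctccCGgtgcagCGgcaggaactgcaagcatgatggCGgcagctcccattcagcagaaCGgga
Ccdc136: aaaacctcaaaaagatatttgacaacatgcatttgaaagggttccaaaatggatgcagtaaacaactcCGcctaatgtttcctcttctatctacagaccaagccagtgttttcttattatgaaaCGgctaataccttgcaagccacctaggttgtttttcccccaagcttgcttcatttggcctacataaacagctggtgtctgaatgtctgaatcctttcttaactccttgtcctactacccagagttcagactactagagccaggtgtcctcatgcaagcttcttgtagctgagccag
Dgcr6: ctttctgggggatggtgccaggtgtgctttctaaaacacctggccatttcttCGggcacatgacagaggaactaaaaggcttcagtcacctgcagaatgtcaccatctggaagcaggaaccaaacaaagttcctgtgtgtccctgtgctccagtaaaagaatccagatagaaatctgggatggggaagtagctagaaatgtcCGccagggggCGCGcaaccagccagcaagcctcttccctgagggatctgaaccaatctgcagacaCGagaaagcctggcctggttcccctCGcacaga
Efcab5: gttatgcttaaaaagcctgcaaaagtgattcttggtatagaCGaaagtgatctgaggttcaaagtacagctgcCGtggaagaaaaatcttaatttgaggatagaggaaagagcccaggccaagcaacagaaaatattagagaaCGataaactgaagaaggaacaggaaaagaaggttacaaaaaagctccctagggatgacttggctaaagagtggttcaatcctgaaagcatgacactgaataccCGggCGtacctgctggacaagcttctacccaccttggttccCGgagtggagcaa

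For *Ccdc136* and *Dgcr6* the same window is given for a second start, one that the GENCODE M21 annotation lists inside the gene and that a peak covered in both replicates. The window of *Ccdc136* lies at chr6:29402619-29402918 and that of *Dgcr6* at chr16:18066153-18066452, both on the plus strand (sequence from the mm10 genome).
Ccdc136 inner start: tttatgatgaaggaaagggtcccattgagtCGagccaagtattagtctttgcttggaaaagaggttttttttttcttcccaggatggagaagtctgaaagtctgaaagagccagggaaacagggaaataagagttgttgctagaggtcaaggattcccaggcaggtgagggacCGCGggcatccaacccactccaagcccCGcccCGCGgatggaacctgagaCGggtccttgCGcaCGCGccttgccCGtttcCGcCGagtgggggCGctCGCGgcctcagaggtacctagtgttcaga
Dgcr6 inner start: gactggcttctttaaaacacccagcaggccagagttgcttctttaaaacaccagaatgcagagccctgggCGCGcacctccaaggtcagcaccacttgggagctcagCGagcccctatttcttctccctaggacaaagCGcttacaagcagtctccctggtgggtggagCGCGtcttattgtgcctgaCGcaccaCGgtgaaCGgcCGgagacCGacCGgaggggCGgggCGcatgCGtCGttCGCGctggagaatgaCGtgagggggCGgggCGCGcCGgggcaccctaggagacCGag

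The *Sp4* window holds 42 CpG, *Nova1* 14 and *Cd37* 8. The deposited start of *Ccdc136* has 2 CpG against 16 at the inner start, and that of *Dgcr6* has 6 against 24. The *Efcab5* window holds 6 CpG, and no listed peak lay within 2 kb of any start of that gene in either annotation.

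RNA level and promoter H3K27ac went together across genes. Of the 22241 genes, 12409 had a peak in both replicates, 825 in only 1 and 9007 in neither. Genes without a peak had a median of 0 RPKM in both RNA libraries, and the quintiles of genes with a peak in both replicates, ranked by mean log2(1 + fold enrichment), had medians of 0.833, 3.79, 9.45, 14.8 and 26.0 RPKM in RNA replicate 1. In replicate 2 these medians were 0.729, 3.56, 9.25, 14.3 and 25.2 RPKM, so the replicates differed by less than neighbouring quintiles did. Median fold enrichment ran from 5.35 in the lowest quintile to 30.5 in the highest in ChIP replicate 1 and from 6.03 to 33.4 in replicate 2. Within a quintile the spread between genes was wide. In the highest quintile the genes between the lower and the upper quartile spanned 9.17 to 68.2 RPKM in replicate 1, and 2.63% of that quintile were under 0.5 RPKM in both libraries.

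**Figure D1:**
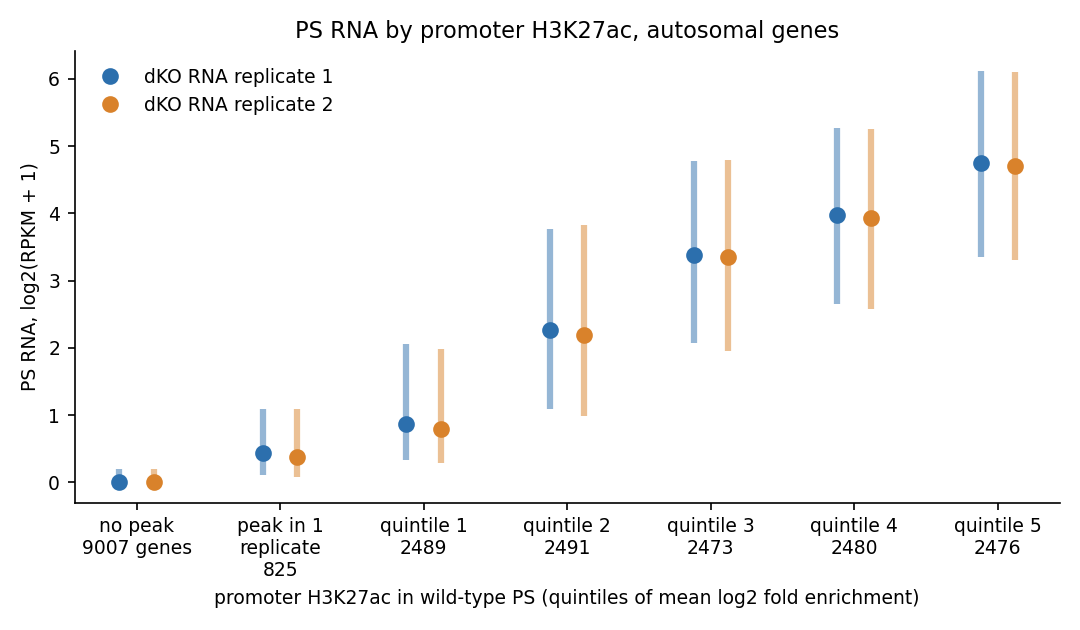
PS RNA in log2(RPKM + 1) for genes without a peak, with a peak in 1 replicate, and in each quintile of promoter H3K27ac; points are medians over genes, bars run from the lower to the upper quartile, and the 2 dKO RNA replicates are drawn side by side. Medians climb from 0 without a peak to 26.0 and 25.2 RPKM in the highest quintile, while the bars of neighbouring quintiles overlap.

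Over all 22241 genes, the rank correlation of promoter signal with RNA was a Spearman rho of 0.795 (Pearson r = 0.734 on the log2 scales, with a pseudocount of 1). Each of the 4 pairings of 1 ChIP with 1 RNA replicate gave a rho between 0.787 and 0.791. The genes share the same 4 libraries and are not independent replicates, so these values are descriptions without a test. Much of the relation lay in the presence or absence of a peak: among the 12409 genes with a peak in both replicates rho was 0.554. The replicates themselves ranked genes far more closely, with a rho of 0.960 for fold enrichment in those 12409 genes and 0.977 for RPKM in all genes.

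The extremes of the 2 scales were not the same genes. Ranked by the lower of both replicates, the highest fold enrichments among protein-coding genes lay at *Hnrnpf*, a splicing factor (56.8 and 60.3 in ChIP replicates 1 and 2), *Mroh4* (55.6 and 65.8), *Unk* (53.9 and 56.5), *Tpp2*, a peptidase (53.5 and 64.1) and *Ddx17*, an RNA helicase (51.0 and 52.6). Their RNA covered a wide range. *Unk*, which encodes an RNA-binding zinc finger protein, had only 3.28 and 3.63 RPKM, while *Mroh4* had 372 and 408. The most abundant RNAs were those of *Ldhc*, the germ cell lactate dehydrogenase (3357 and 3343 RPKM), *Rsph1*, a radial spoke protein of the axoneme (1374 and 1489.6), *Phf7* (1463 and 1333), *Gstm5*, a glutathione transferase (1269 and 1288), and *Tuba3a*, an alpha tubulin (1288 and 1255). All of these had a peak over the start in both replicates, with fold enrichments from 33.4 to 51.0.

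Read from the RNA side, nearly all transcribed genes were acetylated. A gene was called active at 3 RPKM or more in both libraries and silent under 0.5 RPKM in both. Of 8350 active genes, 94.97% had a peak in both replicates (95% Wilson confidence interval 94.5 to 95.4), against 69.7% of 4398 genes between the levels (68.3 to 71.0) and 14.9% of 9493 silent genes (14.2 to 15.6). These intervals cover counting error over genes only. Each ChIP replicate alone put a peak at 95.4% and 95.6% of active genes and at 17.0% and 17.5% of silent genes. The share with a peak in both replicates climbed from 6.14% of the 5094 genes without a single read to 71.2% at 0.5 to 3 RPKM, 90.3% at 3 to 10 RPKM and 98.5% at 100 RPKM and above.

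At equal RNA level, CpG-rich promoters carried a peak more often than CpG-poor ones. A promoter was called CpG-rich when its 300 bases held at least 0.6 times the CpG expected from its C and G content, which held for 10740 genes. These bases were read at the outermost deposited start only, whereas a peak near any deposited start counted. How far the difference comes from genes that use another start than the one read was not tested. Among genes at 3 to 10 RPKM, 97.2% of 2172 CpG-rich promoters had a peak in both replicates (96.5 to 97.8), against 71.9% of 821 CpG-poor promoters (68.7 to 74.8). At 100 RPKM and above the shares were 100% of 646 (99.4 to 100) and 92.9% of 170 (88.1 to 95.9). Without any read they were 24.2% of 495 (20.7 to 28.2) and 4.197% of 4599 (3.65 to 4.82). The intervals did not overlap at any of the 7 levels. Within each kind of promoter, RNA still followed the signal, with a rho of 0.682 over CpG-rich and 0.652 over the 11501 CpG-poor promoters. The strength of the peak differed as well. At 3 to 10 RPKM the median fold enrichment of genes with a peak in both replicates was 17.7 and 19.2 at CpG-rich and 9.47 and 10.96 at CpG-poor promoters.

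**Figure D2:**
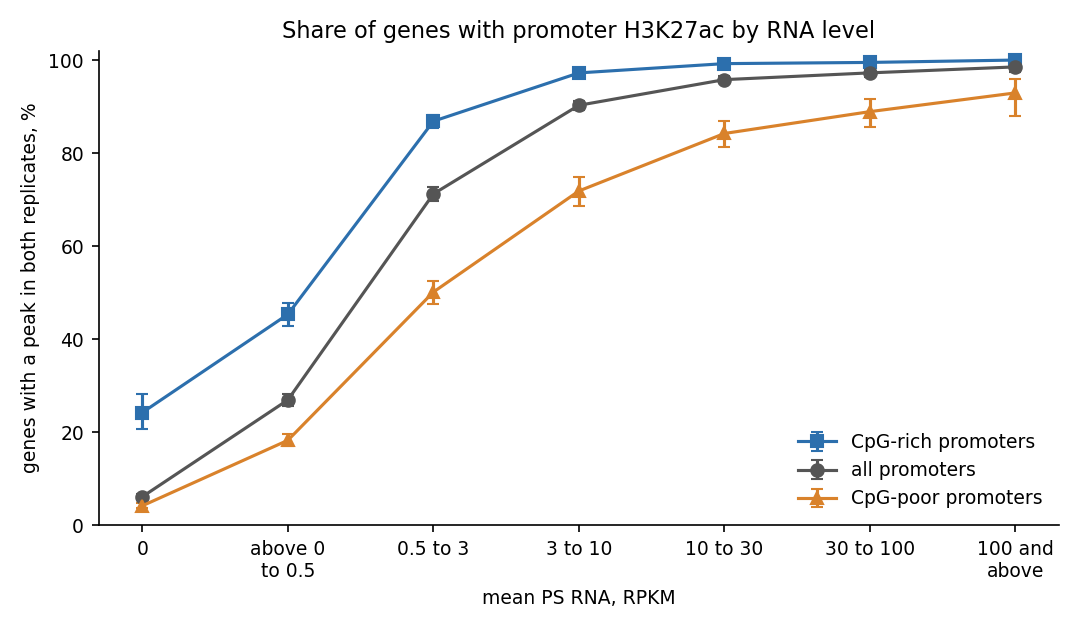
Percentage of genes with an H3K27ac peak in both wild-type PS replicates by mean dKO PS RNA level, for CpG-rich, CpG-poor and all promoters; bars are 95% Wilson intervals. The CpG-rich line lies above the CpG-poor line at each level, 97.2% against 71.9% at 3 to 10 RPKM.

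The classes at the corners of this relation held 7930 acetylated active genes, 7634 unacetylated silent genes, 1415 acetylated silent genes and 333 unacetylated active genes. The cuts fall in a continuum. In the acetylated silent class, 214 genes had their higher replicate between 0.4 and 0.5 RPKM, and 173 acetylated genes lay just outside, at 0.5 to 0.6 RPKM. Likewise 73 unacetylated active genes had their lower replicate between 3 and 4 RPKM and 105 unacetylated genes lay at 2 to 3 RPKM.

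The acetylated silent genes carried weaker peaks, often beside the start rather than over it. Their median fold enrichment was 6.58 and 7.13 in ChIP replicates 1 and 2, against 19.8 and 21.4 in acetylated active genes. A peak covered the start in both replicates at 606 of the 1415 (42.8%, 40.3 to 45.4), against 94.3% of acetylated active genes (93.8 to 94.8). The start of another, active gene lay within 5 kb of 223 of the 1415 (15.8%, 14.0 to 17.8). The same held for 22.6% of acetylated active genes (21.7 to 23.6) and 1.15% of unacetylated silent genes. The last share is low in part by definition, since a neighbour's peak within 2 kb would make a gene acetylated. How many of the 1415 owe their peak to a neighbour was not tested. CpG-rich promoters made up 50.8% of the class (48.2 to 53.4), between the 79.7% of acetylated active genes (78.8 to 80.5) and the 13.0% of unacetylated silent genes (12.2 to 13.7). Still, 127 acetylated silent genes reached a fold enrichment of 20 in both replicates. No protein-coding accession was listed for 420 of the 1415, among them 103 microRNA genes and 43 small nucleolar or Cajal body RNA genes or their hosts, RNAs that are short or processed after transcription. Genes with a protein-coding accession made up 70.3% of the class. They made up 96.1% of acetylated active, 82.5% of unacetylated silent and 87.9% of all genes.

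The 15 genes named from this class are the protein-coding ones with the highest fold enrichment in the weaker replicate that had no neighbouring start within 5 kb and no overlapping gene. *Ttc32*, a tetratricopeptide repeat gene, led with 34.6 and 36.2 at a start covered by the peak and RNA of 0.175 and 0.0900 RPKM. *Sp4*, a zinc finger transcription factor that binds GC boxes, had 32.9 in both replicates and 0.487 and 0.328 RPKM (32 and 20 reads). *Nova1*, a splicing regulator of neurons, had 26.3 and 29.6 with 0.175 and 0.0900 RPKM. In all 3 genes the ChIP replicates lay close together and both RNA libraries were below 0.5 RPKM.

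*Ube2v2*, a ubiquitin-conjugating enzyme variant that works with UBC13, had fold enrichments of 25.5 and 25.8 and 0.182 and 0.0924 RPKM. *Nanp*, a phosphatase of sialic acid synthesis, had 27.2 and 24.7 with 1 read in RNA replicate 1 and 0 in replicate 2. *Kcnj2*, which encodes an inward rectifier potassium channel, had 24.3 and 27.4 with 3 reads and 1 read. *Adam12*, a metalloprotease, had 23.9 and 28.5 with 0.206 and 0.117 RPKM, and *Ppp1r9a*, the actin-binding protein neurabin, had 22.6 and 25.2 with 0.404 and 0.302 RPKM. The peak covered the start in both replicates in each of these 5 genes.

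Elsewhere the peak that gave a gene its signal did not reach the start. At *Cd37*, a tetraspanin of leukocytes, the fold enrichment of the strongest peak within 2 kb was 27.2 and 27.4, but the nearest peak ended 199 bp from the start in replicate 1 and 1734 bp in replicate 2. For *Sult2a2*, a sulfotransferase with no read in any of the 4 RNA libraries, fold enrichment was 31.3 and 37.8 and the nearest peak lay 676 and 811 bp away. *Rtbdn*, a retinal protein (22.2 and 24.1, at 1243 and 1804 bp), and *Barhl2*, a homeobox factor of the nervous system (22.2 and 21.9, at 394 and 387 bp), were of the same kind, as was *4932443I19Rik* (33.3 and 38.4, at 45 and 244 bp). *4931414P19Rik* had a peak over the start only in replicate 1. Of the 15 named genes, 9 had the start covered in both replicates, the last of them *Gm7102* (21.8 and 23.0).

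**Figure D3:**
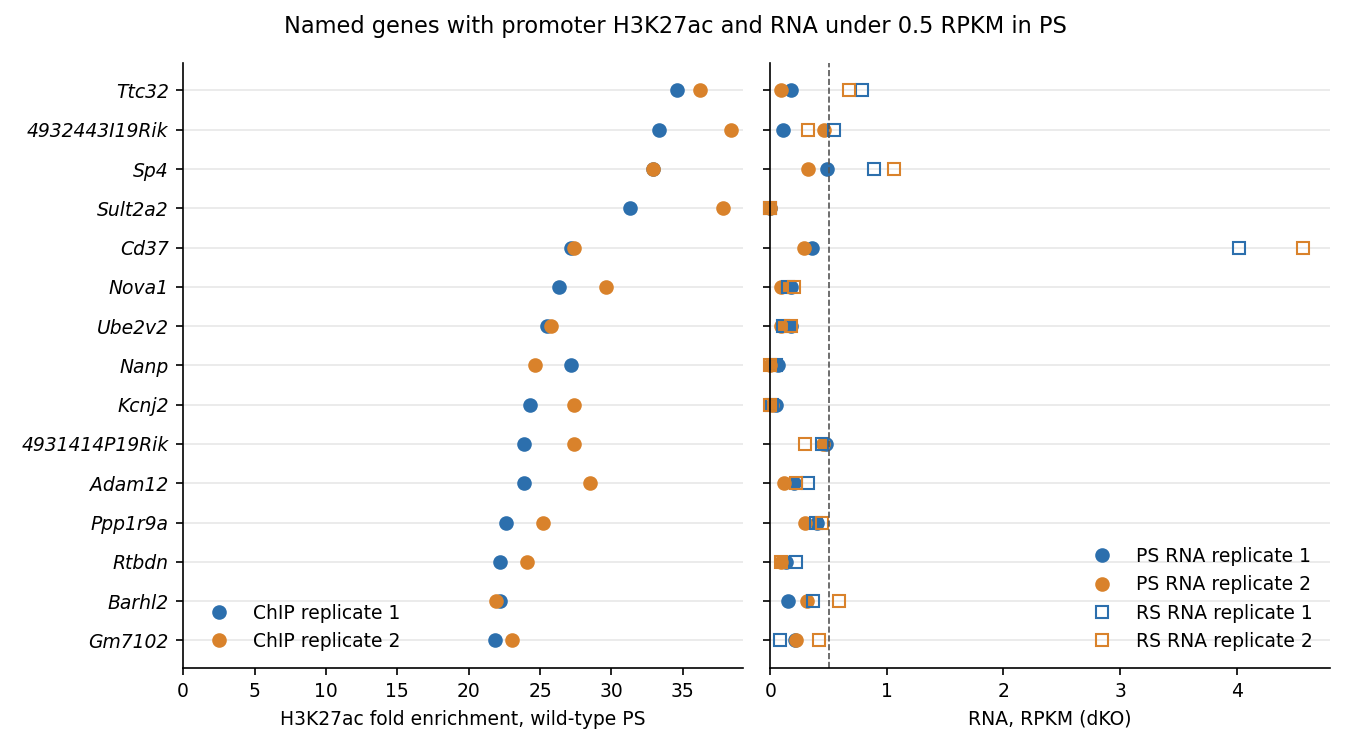
The 15 named acetylated silent genes, with H3K27ac fold enrichment in the 2 wild-type PS replicates (left) and RNA in RPKM in the dKO PS (filled) and RS (open squares) replicates (right); the dashed line marks 0.5 RPKM. Fold enrichment runs from 21.8 to 38.4, all PS RNA lies under the line, and *Cd37* stands out in RS at 4.02 and 4.57 RPKM.

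The tables hold only uniquely aligned reads, so reads that also match a near-identical copy of a gene are not counted. Of the 1415 acetylated silent genes, 313 (22.1%) had 0 reads in both PS libraries, as had 22.9% of all autosomal genes and 61.3% of unacetylated silent genes. Of the 313, 82 were protein-coding. These include *Atp5l*, a subunit of the ATP synthase that cells need in general (fold enrichment 17.3 and 23.6), and *Btg3* (18.1 and 20.8), both picked after their values were seen. Among 37 autosomal housekeeping genes, all with a peak in both replicates, the glycolytic gene *Eno1* had a fold enrichment of 29.6 and 33.4 and only 1.40 and 0.697 RPKM. Whether these genes have such copies and how many reads they lost was not tested.

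The stage that follows was used to see whether acetylated silent genes were transcribed later. Across all 14647 genes tested with edgeR's quasi-likelihood test (2 PS against 2 RS libraries, Benjamini-Hochberg adjusted p under 0.05 and over 1.5-fold), 30.4% were higher in RS and 27.6% lower. Of the 1415 acetylated silent genes, 635 had enough reads to be tested and 338 were higher in RS and 8 lower. Of the 7634 unacetylated silent genes, 926 were tested and 705 were higher and 18 lower. Silent genes are low in PS by choice and many entered the fit only through their RS reads, so these counts are not evidence about the class. The study calls the dKO replicates biological and prepared PS and RS from single males, the labels do not tie a sample to an animal, and the p-values measure only the spread between these libraries. The levels reached were low. Only 12 of the 1415 had 3 RPKM or more in both RS libraries, and 946 (66.9%, 64.4 to 69.3) stayed under 0.5 RPKM in both. The H3K27ac itself was retained at many of them, with a peak in both RS replicates at 834 (58.9%, 56.4 to 61.5) against 96.8% of acetylated active genes (96.4 to 97.2) and 1.69% of unacetylated silent genes (1.42 to 2.00). The acetylated silent genes had weaker peaks already in PS, with a median of 6.58 and 7.13 against 19.8 and 21.4 in acetylated active genes. Retention at equal peak strength was not tested.

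The 15 named genes were chosen as silent in PS, so their values in RS are given without a test. *Cd37* had 5 and 4 reads in PS and 69 and 66 in RS, or 4.02 and 4.57 RPKM, the highest RS level of the 15. *Sp4* had 32 and 20 reads in PS and 72 and 72 in RS (0.892 and 1.06 RPKM), and *Nova1* had 14 and 7 in PS and 15 and 17 in RS. Among the 12 genes that reached 3 RPKM, seen after the fact, were *Ppm1l*, a protein phosphatase with a peak over the start of 20.6 and 18.1 in PS (0.466 and 0.410 RPKM in PS, 3.85 and 4.36 in RS), and *4931408C20Rik* (fold enrichment 18.1 and 16.4, 0.365 and 0.353 RPKM in PS, 4.74 and 3.999 in RS). In both the RS libraries lay far above the PS libraries, but these genes were picked for that. A test of 2 against 2 libraries for 1 gene alone cannot give an exact permutation p below 0.333.

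Gene groups, chosen with earlier results of these data known, showed which of these kinds of gene were acetylated without much RNA. One group joined immediate early genes, which are induced within minutes of a stimulus, with stress response genes. A peak was present in both replicates at 39 of these 40 genes, with a median fold enrichment of 13.0 and 14.5. Of the 40, 23 were active, 9 lay between the levels and 8 were silent. The silent members with a peak were *Dusp2*, a MAP kinase phosphatase (fold enrichment 18.5 and 15.3, RNA of 0.271 and 0.389 RPKM), *Bbc3*, the p53 target PUMA (11.5 and 16.4, 0.266 and 0.228 RPKM), the heat shock genes *Hspa1a* (11.5 and 14.3, 0.188 and 0.0965 RPKM) and *Hspa1b* (8.23 and 7.13), the nuclear receptor gene *Nr4a2* (8.23 and 8.22), the zinc finger gene *Egr2* (4.53 and 6.58) and *Trib3* (3.29 and 3.84). *Hspa1a* and *Hspa1b* are near-identical copies, so their RNA levels are uncertain. At the other end of the group, *Arc*, known from neurons, had 89.3 and 108 RPKM and *Dnajb1*, a heat shock cochaperone, 179.6 and 195 RPKM with fold enrichments of 35.4 and 41.7.

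In RS, 17 of the 38 immediate early and stress genes tested were higher and 2 lower, against 30.4% and 27.6% of all genes tested. The 7 acetylated silent ones were chosen as low in PS, so their RS values are given without a test: *Hspa1a* had 0.690 and 0.819 RPKM, *Egr2* 1.28 and 2.12 RPKM and *Dusp2* 1.15 and 1.47 RPKM, all above their PS libraries. *Klf4*, active already in PS at 12.3 and 13.8 RPKM with fold enrichments of 30.5 and 21.9, was at 89.3 and 77.9 RPKM in RS (log2 fold change 2.71). *Klf4* was picked after its values were seen, so its change is also given without a test.

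The clustered histone genes gave the widest gap between acetylation and RNA. A peak was present in both replicates at 56 of 67, but 46 were silent and only 6 active, and 36 belonged to the acetylated silent class. Of those 36, 27 had no read in either PS library and 22 had the start covered by a peak in both replicates. Their fold enrichment ran from 4.12 to 33.7 in replicate 1 (median 7.41). Many of these genes lie within a few kb of each other and share peaks, and their coding sequences are close to identical. The labels name the measured molecule as polyA RNA, and replication-dependent histone mRNA has no poly(A) tail. The study's methods, however, name total RNA and an Ovation amplification kit and describe no poly(A) selection. The parts that alignment, library and transcription play in the missing reads were not tested. Among the active ones were *Hist1h2ba*, the testis H2B gene (fold enrichment 35.8 and 40.6, 3.20 and 3.52 RPKM), and *Hist2h2be* (28.0 and 28.5, 29.9 and 30.3 RPKM).

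Zinc finger genes of the *Zfp* series had a peak in both replicates at 291 of 352, with 141 active, 124 between the levels and 87 silent, of which 45 were acetylated. The strongest of these was *Zfp963*, at 20.99 and 24.7 with 0.345 and 0.236 RPKM. By contrast, 90 developmental regulators of the kind that Polycomb complexes cover in many cell types were mostly silent without acetylation. Although 64 of them had CpG-rich promoters, only 16 had a peak in both replicates and 47 of the CpG-rich ones had none in either. Of the 16, 7 were silent, led by *Sox17*, an endoderm factor (7.41 and 8.77, 0.336 and 0.489 RPKM). Of the 90, 3 were active, among them the homeobox gene *Nkx6-2* at 31.2 and 28.3 RPKM with a fold enrichment of 13.2 and 17.0. The median RNA of the 90 genes was 0.0520 and 0.0549 RPKM.

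Genes of other tissues were almost devoid of both. Of 1108 olfactory receptor genes, 8 had a peak in both replicates and none was active, and of 316 vomeronasal receptor genes 3 had a peak and 1 was active. Genes whose names start with Krt, taken as keratin and keratin-associated genes, had a peak at 4 of 107 and defensin genes at 1 of 60. The gene families in this paragraph were taken by the start of the gene name alone, so single members may be of another kind. The highest signal at a silent receptor gene was that of *Olfr1275* (26.8 and 36.2), whose nearest peak lay 1267 bp from its start in replicate 1 and which had 0 reads. In the ubiquitously used machinery the picture was the reverse. Of 39 proteasome genes, 37 had a peak in both replicates and 35 were active, and of 88 ribosomal protein genes 82 had a peak and 80 were active.

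**Figure D4:**
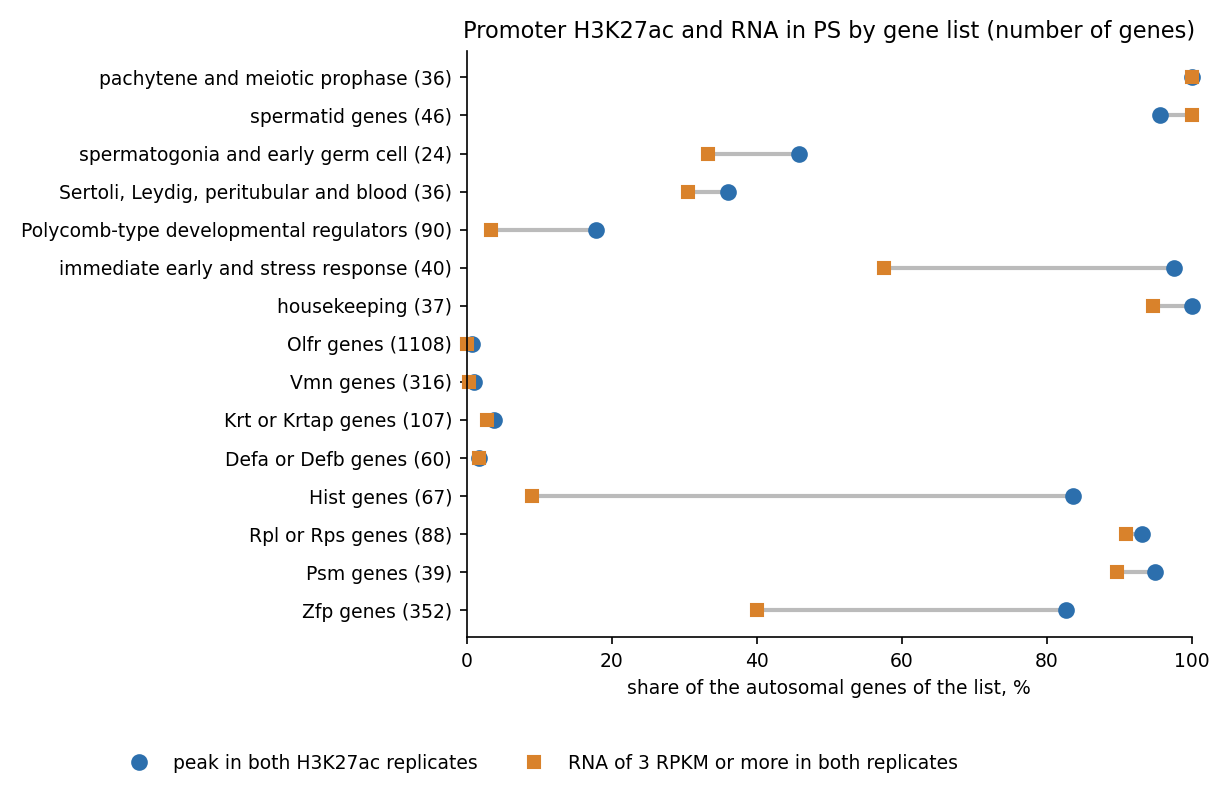
Share of each gene list (number of autosomal genes in brackets) with an H3K27ac peak in both wild-type PS replicates (circles) and with at least 3 RPKM in both dKO PS RNA replicates (squares). The gap is widest for the clustered histone genes, 83.6% against 8.96%, followed by zinc finger (82.7% against 40.1%) and immediate early and stress genes (97.5% against 57.5%).

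The 333 unacetylated active genes were the smaller exception. Their median RNA was 8.19 and 8.32 RPKM, less than the 18.4 and 18.1 RPKM of acetylated active genes. The nearest peak lay at a median distance of 13763 bp from the start. CpG-rich promoters made up 15.02% of them (11.6 to 19.2), about the share in unacetylated silent genes. The start of another active gene lay within 5 kb of 7 (2.102%, 1.02 to 4.27), against 1.15% of unacetylated silent genes. A gene with a neighbour's peak within 2 kb cannot enter either class, so these low shares follow in part from the definition. In RS, 79 of the 333 were higher (23.7%) and 148 lower (44.4%). Of the 7930 acetylated active genes, 1435 were higher (18.1%) and 3196 lower (40.3%), and of all genes tested 30.4% and 27.6%. Both classes were chosen for high RNA in PS, so these counts are descriptions.

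Many of these genes had a peak at a start that the deposited tables do not hold. Of the 312 whose name was found in GENCODE M21, 158 (50.6%, 45.1 to 56.1) had a peak in both replicates within 2 kb of another start that this annotation lists for the gene, with a median fold enrichment of 16.5 and 17.5. The same held for only 165 of 7022 unacetylated silent genes (2.35%, 2.02 to 2.73). A further 56 of the 312 had a peak elsewhere inside the gene in both replicates, and 98 had neither. This use of GENCODE starts was added after the data had been seen, and whether such a peak belongs to the start of another gene was not tested.

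*Ccdc136*, a coiled-coil protein of the sperm acrosome, was the most abundant of the named genes at 363 and 395 RPKM. Its only peak inside the gene (31.3 and 41.1) had its summit 4301 and 4229 bp downstream of the deposited start and covered the inner start printed above, which has 16 CpG where the deposited one has 2. *Dgcr6*, at 118 and 114 RPKM, had its strongest inner peak (17.3 and 21.4) with the summit 13600 and 13309 bp downstream, again over the CpG-rich inner start. *Nlrp14*, a gene of germ cells (82.8 and 74.5 RPKM), had a peak of 22.6 and 22.5 with the summit 20086 and 20215 bp downstream, over a GENCODE start. In all 3 genes both ChIP replicates placed the peak at the same inner start.

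In other named genes the peak lay at a GENCODE start outside the span of the deposited transcript. *Zfp541*, a zinc finger protein of spermatocytes (74.9 and 100.4 RPKM), had a fold enrichment of 37.0 and 44.9 there. The corresponding values were 36.2 and 34.5 for *Ttc39d* (83.0 and 79.4 RPKM), 22.2 and 25.8 for *Tdrd7*, a Tudor protein of the chromatoid body (121 and 133 RPKM), 34.2 and 35.6 for *Sh3gl3*, an endophilin (63.9 and 65.6 RPKM), 15.2 and 14.3 for *Drc1*, a part of the nexin-dynein regulatory complex of the axoneme (91.9 and 101 RPKM), 16.9 and 25.2 for *Fcgr3*, an Fc receptor gene (77.3 and 88.2 RPKM), and 8.23 and 10.4 for *Slc30a3*, a zinc transporter (62.2 and 84.7 RPKM). *Tdrd7* and *Sh3gl3* also had weaker peaks inside the gene. With these, 10 of the 15 named genes had a peak at a GENCODE start in both replicates.

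The remaining 5 did not. *Ide*, the insulin-degrading enzyme, had 172 and 170.1 RPKM and only a weak peak inside the gene (3.70 and 4.93), 4660 and 4105 bp from its start. *C1qtnf4*, a secreted C1q and TNF related protein (147 and 159 RPKM), had a strong peak (42.8 and 43.8) over the end of its short gene, with the summit 4405 and 4478 bp downstream of the start. *Efcab5*, an EF-hand protein (110.1 and 126 RPKM), had a peak of 5.76 and 4.38 far down the gene. *Cers3*, the ceramide synthase for very long chain fatty acids (104 and 74.6 RPKM), had no more than 3.29 and 4.38 at different places in the 2 replicates. *Atp6ap1l* (61.7 and 68.1 RPKM) had a peak of 11.9 and 13.2 inside the gene, with the nearest GENCODE start 11628 and 11496 bp away.

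**Figure D5:**
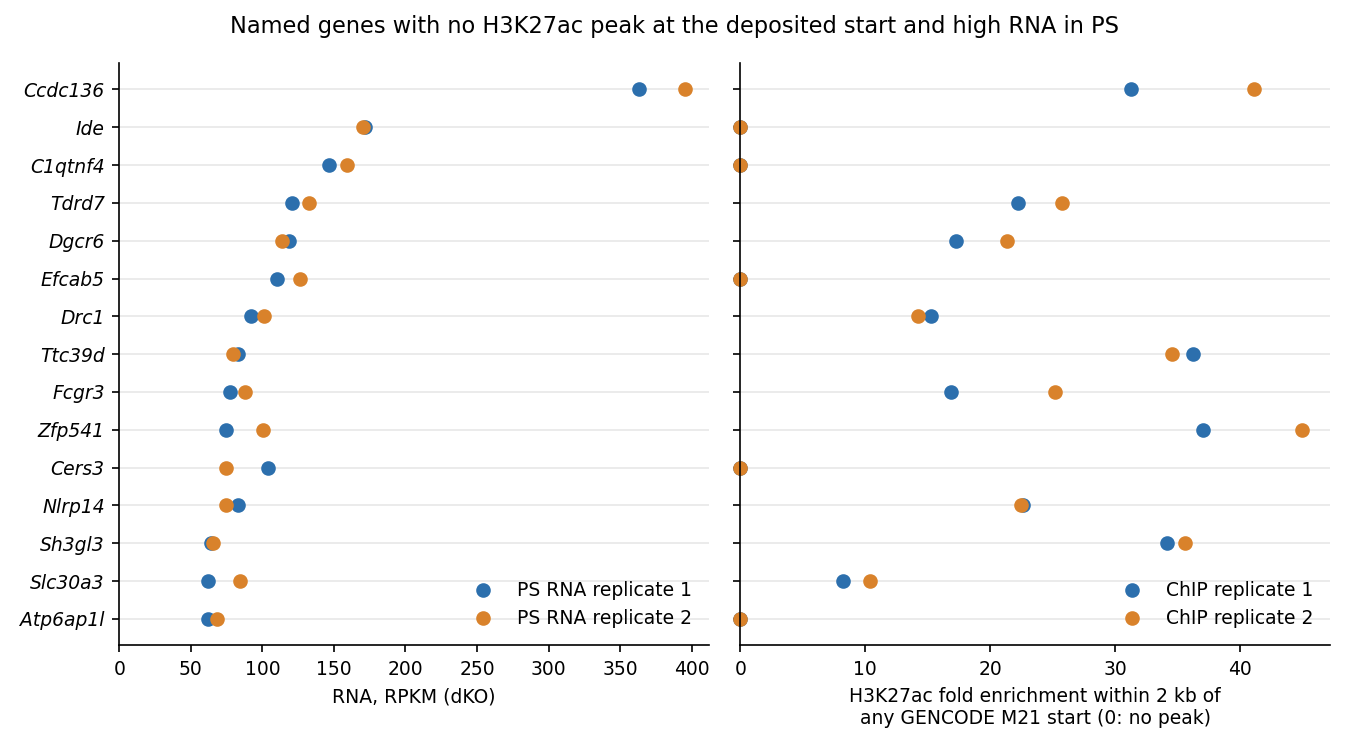
The 15 named unacetylated active genes, with RNA in RPKM in the 2 dKO PS replicates (left) and the highest H3K27ac fold enrichment within 2 kb of any GENCODE M21 start in the 2 wild-type PS replicates (right, 0 where no peak was listed). For 10 genes both replicates lie between 8.23 and 44.9, and for *Ide*, *C1qtnf4*, *Efcab5*, *Cers3* and *Atp6ap1l* both are at 0.

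In RS all 15 genes but *Cers3* had at least 34.6 RPKM in both libraries. *Cers3* had 7.72 and 10.7 RPKM, far below its PS libraries, and *Ttc39d* had 179.6 and 183 RPKM, above them. As the 15 were named for high RNA in PS, these values are given without a test. Only *Sh3gl3* gained a peak at the deposited start in both RS replicates (5.29 and 4.64).

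Markers of other testis cells were among the 98 active genes without a peak at a GENCODE start or inside the gene in both replicates. The highest of the 98 was *Insl3*, the Leydig cell hormone, with 593 and 449.8 RPKM in PS, and *Cyp17a1*, *Hsd3b6*, *Cyp11a1* and *Hsd3b1*, enzymes of steroid synthesis in Leydig cells, had 75.3 and 53.0, 56.2 and 20.7, 29.1 and 21.9, and 14.8 and 10.6 RPKM. In RS *Insl3* had 60.0 and 35.8 RPKM and *Cyp17a1* 4.27 and 2.997 RPKM, below both PS libraries, but these genes were named for high RNA in PS. No peak lay within 2 kb of these 5 starts in either PS or RS.

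Of the whole list of 36 autosomal markers of Sertoli, Leydig, peritubular and blood cells, 13 had a peak in both PS replicates. Of the 36, 11 were active, 15 lay between the levels and 10 were silent. These 5 Leydig cell genes were unacetylated and active, and the other active members had a peak in both replicates. Of the 31 members with enough reads to be tested, 12 were higher in RS and 9 lower, against 30.4% and 27.6% of all genes tested, so the list as a whole did not go 1 way. Their summed level was 1097 and 759.8 RPKM in the PS libraries and 227 and 166 in the RS libraries, of which *Insl3* made up the larger share in PS. Among the 10 silent members were the Sertoli markers *Sox9* (0.169 and 0.0869 RPKM) and *Amh* (0.316 and 0.487 RPKM, with a peak of 16.9 and 21.4 within 2 kb). The haemoglobin genes *Hba-a1* and *Hbb-b1*, with 0 reads, and the leukocyte marker *Ptprc*, with 1 read and 0 reads, were also silent. All of these but *Amh* were picked after their values were seen, and they do not stand for the members that were active or between the levels. In bulk samples such as these, fewer cells of a type and less RNA per cell cannot be told apart, and the part of RNA from other cells in the unacetylated active class was not tested.

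Other genes among the 98 belong to germ cells. *Ttll6*, a tubulin polyglutamylase of cilia and flagella, had 36.4 and 51.0 RPKM in PS and 88.6 and 81.2 in RS, without a peak at either stage. *Iqcf4* had 18.3 and 19.9 RPKM in PS without a peak and 257 and 195 in RS with a peak of 9.76 and 5.22. *Stra8*, which starts meiosis, had 7.30 and 7.67 RPKM in PS and 11.99 and 8.58 in RS, with a peak only in RS (7.32 and 5.22). These genes were picked after their values were seen.

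Spermatid genes were active already in PS and acetylated about as often as active genes in general. All 46 autosomal members of the list were active in PS and 44 had a peak in both replicates (95.7%, against 94.97% of all active genes), though only 5 had CpG-rich promoters. Their median fold enrichment of 13.6 and 14.5 was lower than the 29.0 and 29.9 of the 36 pachytene markers, and 40 of the 46 were higher in RS and 1 lower, against 30.4% and 27.6% of all genes tested. *Prm1*, a protamine that packs sperm DNA, had 8.23 and 8.22 in PS with 104 and 166 RPKM, and 3576 and 3640.3 RPKM in RS (log2 fold change 4.77). It was picked after its values were seen, so its change is given without a test. The exceptions were *Cabs1* (10.6 and 12.02 RPKM in PS) and *Lyzl4* (7.40 and 10.9 RPKM), which had no peak within 2 kb in PS. The list of 24 spermatogonial and early germ cell genes had 11 with a peak in both replicates and 8 active. Whether RNA from spermatids among the PS contributed was not tested.

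Short sequence elements were counted in the 300-base window around the outermost deposited start of each gene, on both strands. Of the 312 unacetylated active genes found in GENCODE M21, 158 had a peak at another start, and the windows of such starts were not searched. The shares of that class thus describe the deposited starts, which need not be the ones in use. The TATA box, searched as TATAAA, occurred in 12.9% of all 22241 windows, in 23.2% of unacetylated silent genes (22.2 to 24.1), 15.02% of unacetylated active genes (11.6 to 19.2), 9.33% of acetylated silent genes (7.92 to 10.96) and 6.14% of acetylated active genes (5.63 to 6.69). The core of the cAMP response element, TGACG, was found in 24.2% of all windows and in 36.2% of acetylated active (35.1 to 37.2), 24.0% of acetylated silent (21.9 to 26.3), 12.7% of unacetylated silent (11.9 to 13.4) and 11.4% of unacetylated active genes (8.43 to 15.3). It contains a CpG, so its share also follows the CpG content of the classes. The full element, TGACGTCA, which contains the core, was in 2.41% of all windows and in 4.14% of acetylated active genes (3.72 to 4.60). The full element was in 1.70% of acetylated silent, 0.786% of unacetylated silent and 0.601% of unacetylated active genes. The element of RFX factors, GTTGCC, was in 14.8% of acetylated active and 10.6% of acetylated silent genes and in 9.65% and 8.11% of unacetylated silent and active genes (11.9% of all). The MYB core, CAACTG, was in 10.6%, 11.1%, 14.2% and 14.4% of the classes in the same order (12.2% of all), and the palindrome of NRF1, which also contains CpG, in 2.45%, 0.636%, 0.0655% and 0.3003% (1.19% of all). These shares also follow the CpG content of the classes. Among CpG-rich promoters alone, TATAAA was in 6.40% of acetylated silent, 5.03% of acetylated active and 10.01% of unacetylated silent genes and in 3 of the 50 unacetylated active genes, and CAACTG was in 8.07%, 8.68% and 6.37% and in 4 of the 50, so that the order of the classes for CAACTG was no longer that of all promoters. GTTGCC was in 8.62%, 14.04% and 9.71% and in 4 of the 50. A match is a string of letters and not a site of binding.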

How the data were processed

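For each of PS and RS, 2 wild-type samples with H3K27ac ChIP-seq and 2 *Rnf8;Scml2*-dKO samples with RNA-seq were analysed. The authors aligned reads to mm10, keeping only uniquely aligned ones, with Bowtie (1.1.1) for ChIP-seq and STAR (2.4.2a) for RNA-seq, and called peaks per sample with MACS2 (2.1.0.20140616); the versions are from the submitters' processing notes. The peak lists as deposited give a pileup signal, a fold enrichment ratio, and −log10 values of p and q. The RNA tables as deposited by the authors give estimated counts per RefSeq isoform, assigned by expectation maximisation, and RPKM. Depth is as in the report: every RNA library held between 9655405 and 12289694 reads on genes, and ChIP-seq depth is not given in the sources used here.

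Rows of a gene were summed. Promoter signal was the mean over replicates of log2(1 + fold enrichment) within 2 kb of any start, and RNA was log2(RPKM + 1). Classes used 0.5 and 3 RPKM in both replicates. For the comparison of RS with PS, estimated counts (whole numbers in the tables) entered edgeR 4.0.16 (TMM, quasi-likelihood test) with genes of at least 10 counts in 2 samples, called at a Benjamini-Hochberg adjusted p under 0.05 and over 1.5-fold, and DESeq2 1.42.0 was an alternative. The fit was tested on simulated counts. The other software was R 4.3.3 and Python 3.11.15 with scipy 1.17.1, pandas 2.3.3 and numpy 2.4.6, and plots were drawn in matplotlib 3.10.9. Promoter windows came from the RefSeq promoter table, which held 15620 of the genes, 12488 of them with a start at the same base, and GENCODE M21 held 20671 by name. For CpG content and motifs the 300 bases were read from the genome at the outermost deposited start.

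Genes were named by rule: the 15 protein-coding genes of each exceptional class that lie apart from other genes, by the lower replicate; 5 with the highest signal and 5 with the most RNA; and from each list, silent members with the highest signal and members without a peak with the most RNA. Other names (*Arc*, *Dnajb1*, *Klf4*, *Nkx6-2*, *Prm1*, *Hist1h2ba*, *Hist2h2be*, *Eno1*, *Sox9*, *Ptprc*, the haemoglobin genes and those marked in the text) were chosen after their values were seen. Members and lists were chosen with earlier results of these data known. Alternatives covered the window, thresholds, start annotation, overlapping genes, single replicates, normalization and pairing.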

Additional observations from a re-analysis of the deposited data

How the results depend on the processing

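The rank correlation of promoter signal with RNA (0.795) was 0.798 and 0.784 with windows of 1 and 5 kb, 0.792 with summits at p of 1e-05 or less, 0.815 for genes without close or overlapping neighbours, 0.815 for genes with a coding accession, 0.790 to 0.796 with 1 library left out, 0.547 for genes of at least 0.5 RPKM, and 0.811 with GENCODE starts added, an alternative chosen after seeing the data. The 1415 acetylated silent genes became 798 without close or overlapping neighbours, 480 and 2212 with limits of 0.1 and 1 RPKM, 900 at a fold enrichment of at least 5 and 606 where a peak had to cover the start, also chosen after seeing the data. The 333 unacetylated active genes became 129 and 684 at 10 and 1 RPKM and 166 with GENCODE starts added. With 1 library left out these classes held 1600 to 1728 and 370 to 383 genes. The classes thus depend on thresholds that cut a continuum, and on annotated starts.

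With the replicate number as a block, 4589 genes were higher in RS and 4134 lower, against 4448 and 4049 without it. PS and RS samples with the same number share only that number as far as the labels say, and the deviations of replicate 1 from its stage means correlated with an r of 0.225 over 14647 genes. DESeq2 called 3814 and 3634, and with 1 library left out the counts were 3128 to 4671 higher and 2911 to 3983 lower. With RLE size factors they were 4487 and 4013, and without a filter on low counts 4812 and 4207. In the fits with a library left out, the lone sample of its stage is assumed to vary like the other stage. Fold enrichment under 3.29 is not listed, so weak acetylation cannot be told from none, and a gene at 0.5 RPKM rests on few reads at these depths.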
